A study of Homo sapiens with 6 samples.

Results

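The genes described are 9 members of the p53 network, chosen by name and found by joining the Ensembl identifiers of the deposited table to GENCODE symbols: the p53 relatives TP63 and TP73, the p53 inhibitors MDM2 and MDM4, and SESN1, SESN2, GDF15, FAS and TP53INP1, which p53 is known to switch on. They are 9 of 58884 genes in the table. RNA-seq compared DLD1 parental cells, a line from a colorectal cancer with a helical domain mutation of *PIK3CA*, with DLD1 cells in which K477A and R478A were knocked into p85β, the PI3K regulatory subunit encoded by *PIK3R2*. The changed residues lie in the nuclear localization sequence of p85β, and the cells are called p85β KR-AA cells here. There were 3 libraries of each condition, with no treatment and a single time, and the labels name no allele besides the knock-in that differs between the conditions. The study describes a pair of knock-in clones. No label ties a library to a clone or a separate culture, so that the p-values measure only the spread between these libraries. The source labels of p85β KR-AA replicates 2 and 3 read R479A and R480A in place of R478A, while their titles and genotype labels read R478A.

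p53 is a transcription factor that halts the cell cycle, starts DNA repair or triggers death after damage, and MDM2, itself a p53 target, is the ubiquitin ligase that returns p53 to low levels. MDM4 binds and silences p53 and pairs with MDM2. Several of the targets also answer to stress sensors, FOXO factors or the p53 relatives. DLD1 is known to carry mutant p53, and the activity of p53 in these cells was not tested.

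The p53 binding motif is a pair of 10-base arms, and the short stretches in RefSeq promoter windows (GRCh38.p14) that come closest to it are shown because they are the sequences by which p53 is known to reach these genes. Windows of 300 bases, from 250 before to 50 after a transcription start, were at hand for 8 of the 9 genes, 17 windows in all. The p53 motif was searched by name as adjoining arms with no spacer and at most 3 mismatches in 20 bases, a limit loosened after a stricter search had been seen, and as the motif is its own reverse complement 1 strand covers both. A match was found in 6 of the 17 windows, in 5 genes (MDM2, FAS, SESN1, TP73 and GDF15), and in 5.2% of all 35116 windows. Several of the 9 genes have more than 1 window, and 6.39% of all genes had a match in any window. The matches, in capitals throughout and written 5′ to 3′ on the strand of the gene, were as follows.
MDM2, first site, chr12:68808923-68808942, plus strand, 2 mismatches: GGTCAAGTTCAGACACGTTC
MDM2, second site, chr12:68808961-68808980, plus strand, 3 mismatches: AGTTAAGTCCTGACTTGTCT
FAS, chr10:88991309-88991328, plus strand, 2 mismatches: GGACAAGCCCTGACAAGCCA
SESN1, chr6:109009018-109009037, minus strand, 3 mismatches: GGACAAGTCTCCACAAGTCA
TP73, chr1:3690596-3690615, plus strand, 2 mismatches: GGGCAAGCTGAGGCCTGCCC
GDF15, chr19:18386186-18386205, plus strand, 3 mismatches: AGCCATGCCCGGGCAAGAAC
The pair of MDM2 sites lies before the inner start of the gene, the p53-responsive promoter within its first intron. The 150 bases before that start (chr12:68808867-68809016, plus strand), with both sites in capitals, show how close they stand.
MDM2 inner promoter: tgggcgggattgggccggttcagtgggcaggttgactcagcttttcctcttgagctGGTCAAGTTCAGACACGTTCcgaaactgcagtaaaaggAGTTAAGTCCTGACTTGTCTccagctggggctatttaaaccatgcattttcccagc
A match describes letters and says nothing of binding in these cells, and no match in the window of MDM4, SESN2 or TP63 says only that these letters are not there.

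The libraries held 20301932 to 20873475 estimated counts in parental cells and 20301396 to 26712816 in p85β KR-AA cells, and 3 counts, the floor used for a gene at 0, were worth 0.0817 to 0.218 CPM (counts scaled to a common library size by TMM), which accounts for counting error alone. Levels are in CPM, and fold changes and tests are from edgeR over the 16059 genes with enough counts. Of 15 colon epithelial markers, 13 were over 1 CPM in every parental library and 11 in every p85β KR-AA library, with EPCAM at 312.5 and 171.8 CPM and CDX2 at 346.3 and 87.9 CPM on average, while CDX1 was under 1 CPM in both. The summed level of the epithelial list was 57206 to 79213 CPM in parental libraries and 8841 to 10345 CPM in p85β KR-AA libraries. That of 16 mesenchymal markers was 28.4 to 31.2 CPM against 6325 to 7237 CPM, almost all of it FN1 and VIM, with 5 of the list (COL3A1, PDGFRA, ZEB1, LUM and DCN) without a count in any parental library and 3 (COL1A2, PDGFRA and TWIST1) without a count in any p85β KR-AA library. Most of the epithelial sum was KRT8, KRT18 and KRT19 in both conditions. At an adjusted p under 0.01 (edgeR) and at least a 3-fold change, 7 of 14 tested epithelial markers were lower. Another 3, CEACAM5, CDH17 and CDH1, were higher. Of 11 tested mesenchymal markers 7 were higher and 1, TAGLN, was lower. Of all tested genes 28.6% were higher and 17.6% lower. Of 10 blood markers, 2 were over 1 CPM in every parental library and 3 in every p85β KR-AA library. RPS4Y1, a gene of the Y chromosome, had no count in any parental library and 4656 to 6696 counts in p85β KR-AA libraries. The part of these differences between the conditions in the results below was not tested. Whether the conditions were the same cells apart from the knock-in was not tested either: differences between cell stocks or clones and those that go with the knock-in cannot be told apart, and every fold change below is between these libraries. In bulk RNA fewer cells of a type and less RNA per cell cannot be told apart. Counts per gene do not show the knocked-in bases, and *PIK3R2* itself had 169.3 to 524.1 counts in parental and 124.5 to 503.1 in p85β KR-AA libraries.

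Of the 9 genes, 8 had enough counts to be tested, and they moved in both directions. MDM2, MDM4, SESN1, FAS and TP53INP1 were higher in p85β KR-AA cells, and TP73, SESN2 and GDF15 were lower, all at an adjusted p under 0.01 (edgeR quasi-likelihood test, Benjamini-Hochberg over all tested genes). So were 41.6% of all tested genes in the higher direction and 32.7% in the lower one, 74.3% together. With a fold change of at least 3 as well, the thresholds of the study's methods, 4 were higher (MDM2, MDM4, SESN1 and TP53INP1) and 2 were lower (TP73 and GDF15), where 28.6% and 17.6% of all tested genes were (46.2% in either direction). In 8 of the 8 tested genes the libraries of the conditions did not overlap, as in 83.5% of all tested genes (47% with every p85β KR-AA library above and 36.5% with every one below), so that passing the test was common in this comparison. The median log2 fold change was 1.57 over the 8 genes and 0.32 over all tested genes. The plot of each library shows these values.

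**Figure D1:**
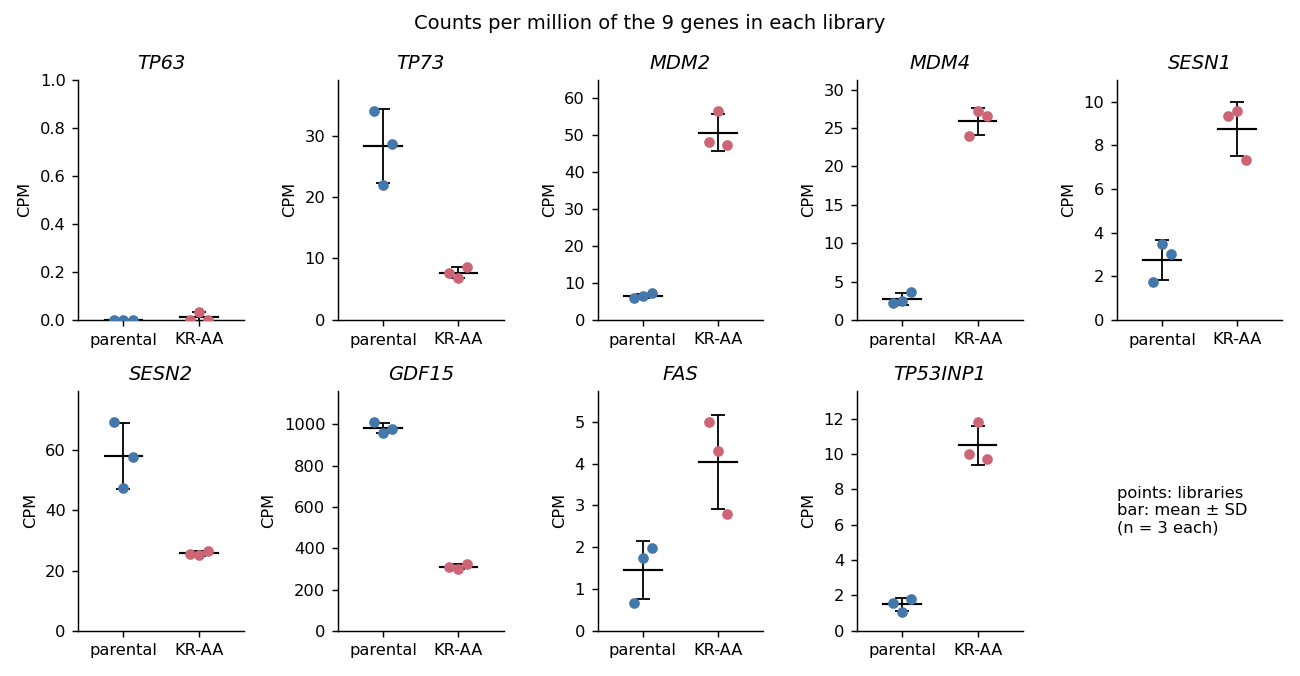
CPM (y axis, from 0, its own scale for each gene) of the 9 genes in the 3 parental libraries (blue) and the 3 p85β KR-AA libraries (red); points are libraries and black bars the mean ± SD. MDM2 is at 5.97 to 7.15 CPM in parental and 47.1 to 56.3 CPM in p85β KR-AA libraries, GDF15 at 960.1 to 1011 and 300.5 to 324.6 CPM, and TP63 has a single count in a single library.

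MDM2 and MDM4, the p53 inhibitors, rose together and by the most. MDM2 (ENSG00000135679, plus strand of chromosome 12 in the GRCh37 annotation, 69201957 to 69239324) had estimated counts of 89.6, 87.8 and 115.6 in parental replicates 1, 2 and 3, or 5.97, 6.40 and 7.15 CPM. In p85β KR-AA replicates 1, 2 and 3 it had 1766, 1619 and 1293 counts, or 48.1, 56.3 and 47.1 CPM. Every p85β KR-AA library was far above every parental one, and the mean went from 6.51 ± 0.60 to 50.5 ± 5.06 CPM (mean ± SD, n = 3 each). This was a log2 fold change of 2.95 (standard error, SE, 0.17; adjusted p = 9.79e-09 by edgeR's quasi-likelihood test), or 7.75-fold.
MDM4 (ENSG00000198625, plus strand of chromosome 1, 204485507 to 204527248) had 33, 33 and 59 counts in the parental libraries, or 2.19, 2.40 and 3.64 CPM. The p85β KR-AA libraries held 879, 783 and 730.1 counts, or 24, 27.2 and 26.6 CPM. Parental replicate 3 was the highest of its condition and still far under the lowest p85β KR-AA library. The log2 fold change was 3.23 (SE 0.22, adjusted p = 3.24e-08 in edgeR), the largest among the 8 tested genes. Per kilobase of gene length, MDM2 stood at 1.95 ± 0.34 times MDM4 in parental cells and at 1.55 ± 0.13 times in p85β KR-AA (mean ± SD, n = 3 each), with ranges of 1.56 to 2.17 and 1.41 to 1.65 that overlap.
The calls of both genes ended when the relation of counts with gene length and GC content was taken out of each library by offsets in the fit. MDM2 was then at a log2 fold change of -0.27 (adjusted p = 0.103, edgeR) and MDM4 at 0.38 (adjusted p = 0.0785). No gene that overlaps MDM2 or MDM4 held as much as 10% of its counts.

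In the p53 family, TP63 was not detectable at this depth and TP73 fell. TP63 (ENSG00000073282, plus strand of chromosome 3, 189349178 to 189615065), the family member of squamous and basal epithelium, had no count in 5 libraries and 1 count in p85β KR-AA replicate 2, below the floor of 3 counts in every library, and was not tested. Among 10 markers of squamous epithelium, 6 were over 1 CPM in every parental library and 1, SFN, in every p85β KR-AA library. None was higher past both thresholds and 5 of the 7 tested were lower, among them KRT13 at -3.82 and SFN at -2.45 (log2 fold changes, adjusted p = 3.82e-08 and 9.21e-09, edgeR). Of all tested genes 28.6% were higher and 17.6% lower. Among tested genes of at least 55% GC, as these 7 were, 39.7% were lower. With the length and GC offsets KRT13 was at -2.48 and SFN at -0.44, under the threshold of 3-fold.
TP73 (ENSG00000078900, plus strand of chromosome 1, 3569080 to 3652765), which encodes p73, a factor that binds much the same sites as p53, had 34.0, 22 and 28.7 CPM in parental replicates 1, 2 and 3. It had 7.66, 6.89 and 8.55 CPM in p85β KR-AA replicates 1, 2 and 3. The lowest parental library was well above the highest p85β KR-AA library, and the mean went from 28.3 ± 6.01 to 7.70 ± 0.83 CPM (mean ± SD, n = 3 each). The log2 fold change was -1.88 (SE 0.19, adjusted p = 1.50e-06 in edgeR), a fall of 3.67-fold. With the length and GC offsets TP73 kept its direction, at -1.62 (adjusted p = 3.38e-07, edgeR), and with offsets for gene length alone it was at -3.26.
How TP73 reads were separated from those of its neighbours is not stated, and its counts are uncertain for that reason. WRAP73, on the opposite strand, was also lower, from a mean of 1542 counts to 794.7 (log2 fold change -2.0, adjusted p = 3.80e-08, edgeR). TP73-AS1, likewise opposite, went the other way, with 9.32, 9.79 and 2.90 counts in the 3 parental libraries against 213.2, 178.4 and 167.5 in those of p85β KR-AA cells, a log2 fold change of 3.60 (adjusted p = 7.37e-07, edgeR). Without strand in the counting, reads of TP73 and of these genes cannot be told apart where they overlap.

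The sestrins, stress-induced proteins that restrain the growth kinase TORC1 by binding the GATOR2 complex, did not move as a family. SESN1 (ENSG00000080546, minus strand of chromosome 6, 109305512 to 109416049) had 26, 48 and 49 counts in the parental libraries, or 1.73, 3.49 and 3.02 CPM. The p85β KR-AA libraries held 344, 275 and 201 counts, or 9.37, 9.57 and 7.32 CPM. All of these were above the parental libraries, and the mean went from 2.75 ± 0.92 to 8.75 ± 1.25 CPM (mean ± SD, n = 3 each), or a log2 fold change of 1.68 (SE 0.26, adjusted p = 6.47e-05 in edgeR).
SESN1 lay just past the fold threshold, and parental replicate 1, the lowest library, carried part of the size. Without that library the log2 fold change was 1.42 and under the threshold of 3-fold, with an adjusted p of 0.000307, and with DESeq2 it was 1.56. Under the length and GC offsets it was -0.01 (adjusted p = 0.981, edgeR).
SESN2 (ENSG00000130766, plus strand of chromosome 1, 28586029 to 28609002), a sestrin that also senses leucine, went the other way. It had 69.2, 47.4 and 57.5 CPM in parental replicates 1, 2 and 3, and 25.4, 25.1 and 26.5 CPM in p85β KR-AA replicates 1, 2 and 3. The parental libraries spread widely and the p85β KR-AA libraries hardly at all, and the mean fell from 58.0 ± 10.9 to 25.7 ± 0.74 CPM (mean ± SD, n = 3 each). The log2 fold change of -1.18 (SE 0.16, adjusted p = 1.72e-05 in edgeR) was a fall of 2.26-fold, under the fold threshold. Scaled by library totals, SESN2 was at -0.26 (adjusted p = 0.193, edgeR), and with both offsets at -0.46 (adjusted p = 0.00143).
SESN3, the FOXO-driven sestrin and not among the 9 genes, had 1.26, 1.02 and 0.801 CPM in parental replicates 1, 2 and 3, from 13 to 19 counts, and 35.0, 38.1 and 23.9 CPM in p85β KR-AA replicates 1, 2 and 3. Its log2 fold change was 4.98 (SE 0.27, adjusted p = 7.73e-09 in edgeR), and 1.92 with both offsets (adjusted p = 3.98e-06). In parental cells SESN2 made up nearly all sestrin RNA per length, with SESN1 at 0.0497 ± 0.024 and SESN3 at 0.00647 ± 0.0014 of its level. In p85β KR-AA cells SESN1 stood at 0.337 ± 0.057 and SESN3 at 0.458 ± 0.12 of SESN2 (mean ± SD, n = 3 each). These ratios were not adjusted for GC content. With both offsets the log2 fold changes were -0.01 for SESN1, -0.46 for SESN2 and 1.92 for SESN3.

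Of the other p53 targets among the 9 genes, TP53INP1 and FAS rose and GDF15 fell. TP53INP1 (ENSG00000164938, minus strand of chromosome 8, 95938200 to 95961606), which encodes a stress protein that takes part in autophagy and supports p53 activity, had 24, 15 and 29 counts in the parental libraries, or 1.59, 1.09 and 1.79 CPM. The p85β KR-AA libraries held 367, 338 and 267 counts, or 10, 11.8 and 9.72 CPM. The groups were far apart, with a log2 fold change of 2.80 (SE 0.24, adjusted p = 2.86e-07 in edgeR), or 6.97-fold. Under the length and GC offsets it was at 0.39 (adjusted p = 0.120, edgeR). NDUFAF6, on the opposite strand across the same locus, held more counts than TP53INP1 in parental cells (means of 174.3 and 22.7), and it was lower in p85β KR-AA cells (log2 fold change -1.37, adjusted p = 0.000101, edgeR).
FAS (ENSG00000026103, plus strand of chromosome 10, 90750414 to 90775542), the death receptor for FAS ligand, had only 9.87, 24 and 32.5 counts in the parental libraries, or 0.664, 1.75 and 1.97 CPM. The p85β KR-AA libraries held 182.8, 124.2 and 76.8 counts, or 4.99, 4.31 and 2.80 CPM. The conditions came close to each other, between parental replicate 3 and p85β KR-AA replicate 3, but did not overlap. The log2 fold change of 1.47 (SE 0.36, adjusted p = 0.00227 in edgeR) was under the fold threshold, and FAS had the largest error of the 8 tested genes.
The log2 fold change of FAS was past the threshold of 3-fold without parental replicate 3 (1.73) and without p85β KR-AA replicate 3 (1.67), and was lowest without parental replicate 1 (1.11). Under the length and GC offsets it was at -0.35 (adjusted p = 0.304, edgeR). FAS overlaps ACTA2 on the opposite strand, which went from a mean of 77.4 counts to 264.5, and the non-coding ENSG00000286116, with means of 3.48 and 7.78 counts.
GDF15 (ENSG00000130513, plus strand of chromosome 19, 18485541 to 18499986), a secreted stress cytokine of the TGF-β superfamily, was the most abundant of the 9 genes. It had 1011, 960.1 and 977.1 CPM in parental replicates 1, 2 and 3, and 307.7, 300.5 and 324.6 CPM in p85β KR-AA replicates 1, 2 and 3. The libraries of each condition lay close together and the conditions far apart, with means of 982.7 ± 25.9 and 310.9 ± 12.4 CPM (mean ± SD, n = 3 each). The log2 fold change was -1.66 (SE 0.12, adjusted p = 4.92e-08 in edgeR), a fall of 3.16-fold, and it turned to 0.50 under the length and GC offsets (adjusted p = 0.000723).

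Per kilobase of gene length the order of the genes changed between the conditions. In parental cells GDF15 (818.9 CPM per kilobase), SESN2 (16.8) and TP73 (5.44) followed each other without overlap between libraries, and far below came SESN1 (0.782), MDM2 (0.515), FAS (0.395), MDM4 (0.273) and TP53INP1 (0.266), each of which overlapped its neighbour in the order. SESN3 was lower still at 0.107. In p85β KR-AA cells GDF15 (259.1) and SESN2 (7.42) again came first. MDM2 came next at 4.0 ± 0.40 CPM per kilobase (SD, n = 3) and overlapped SESN3 (3.38), which overlapped MDM4 (2.58), which overlapped SESN1 (2.49), which overlapped TP53INP1 (1.87). TP73 went from the third to the eighth place, at 1.48, where it overlapped FAS at 1.09. The range between GDF15 and the lowest of the 8 tested genes narrowed, as the plot of levels per length shows. The libraries were scaled by TMM, and totals gave other levels, by more than the spread between replicates in 13 of the 18 gene and condition pairs. The levels per length were not adjusted for GC content.

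**Figure D2:**
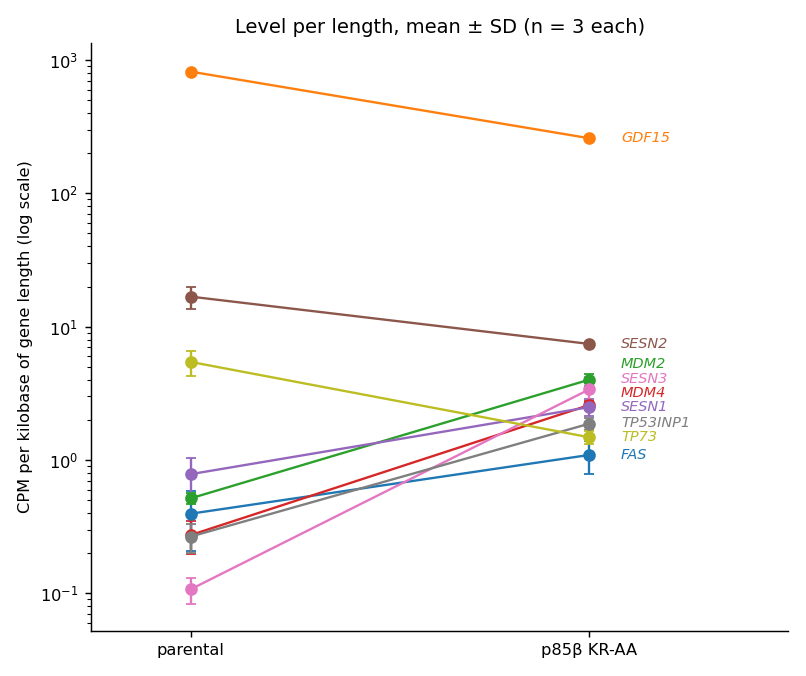
Mean level of 8 of the 9 genes and SESN3 in CPM per kilobase of gene length (y axis, log scale) in parental and p85β KR-AA cells; error bars are the SD of 3 libraries. GDF15, SESN2 and TP73 fall from left to right and MDM2, MDM4, SESN1, SESN3, FAS and TP53INP1 rise, with TP73 crossing from above to below most of the rising genes. TP63 is left out, with 1 count in all.

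The genes that rose and those that fell also differed in a property of their sequence. The 5 higher genes had a GC content of 39.1% to 42.3% in their longest annotated transcript and a deposited length of 3509 to 12632 bases, and the 3 lower genes had 59.6% to 64.1% and 1200 to 5192 bases. Across all tested genes the same properties went with the fold change. The 5730 tested genes under 45% GC had a median log2 fold change of 1.6, with 50.2% higher and 2.53% lower past both thresholds. The 4925 tested genes of at least 55% GC had a median of -1.23, with 7.72% higher and 39.7% lower. Genes both under 45% GC and of at least 3000 bases numbered 3279 among those tested, with a median of 2.14 and 64.4% higher. Against these, MDM4 (3.23), MDM2 (2.95) and TP53INP1 (2.80) lay above the median, SESN1 (1.68) and FAS (1.47) below it. SESN2 and TP73 belonged to the 1727 genes of at least 55% GC and at least 3000 bases, whose median was -0.52, and lay below it at -1.18 and -1.88. GDF15, at -1.66, lay next to the median of -1.62 of the 3198 GC-rich genes under 3000 bases. Length and GC content differ between the genes and not between the conditions, and whether their relation with the fold change arose in the cells or in the libraries was not tested.

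**Figure D3:**
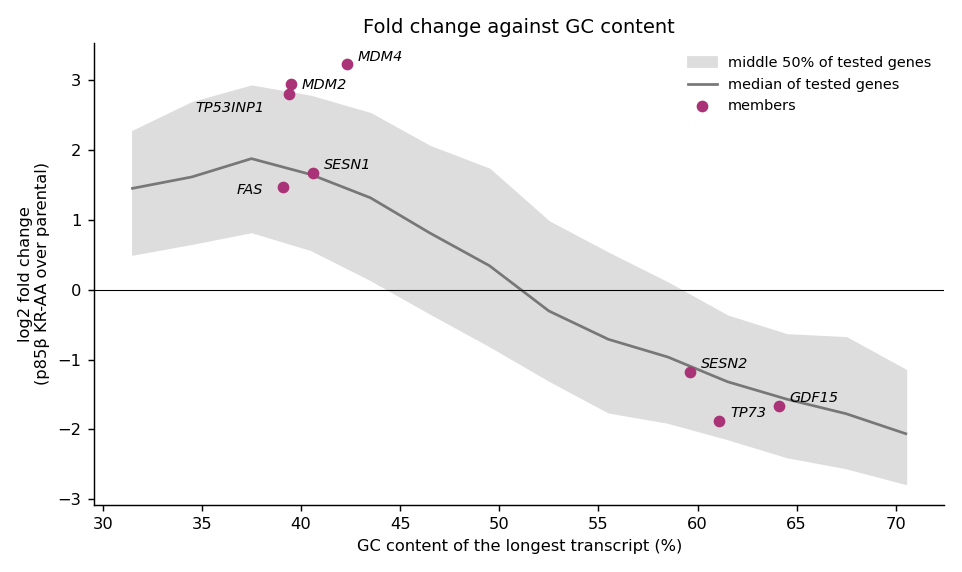
Log2 fold change of p85β KR-AA over parental cells (y axis) against the GC content of the longest transcript in percent (x axis). The grey line and band are the median and the middle 50% of all tested genes in bins of 3% GC with at least 20 genes, and the points are the 8 tested genes: MDM4, MDM2 and TP53INP1 sit at the upper edge of the band or above it, and SESN1, FAS, SESN2, TP73 and GDF15 lie inside it.

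With offsets for length and GC content in the fit, the split of the 9 genes was largely gone. No gene was then higher past both thresholds and 1 was lower, TP73. At an adjusted p under 0.01 alone, GDF15 was higher, and TP73 and SESN2 were lower (edgeR quasi-likelihood test). MDM2, SESN1 and FAS changed sign without passing the test, and MDM4 and TP53INP1 stayed above 0 without passing it. The median log2 fold change of all tested genes moved by -0.37 with length offsets, by -0.40 with length and GC offsets and by 0.92 with library totals, relative to TMM. The offsets remove any relation of counts with these properties, whatever its source, and TP73 alone kept a change of over 3-fold under TMM and under both kinds of offset, although with library totals it was at -0.96 (adjusted p = 0.00159). The plot of fold changes sets the scalings side by side.

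**Figure D4:**
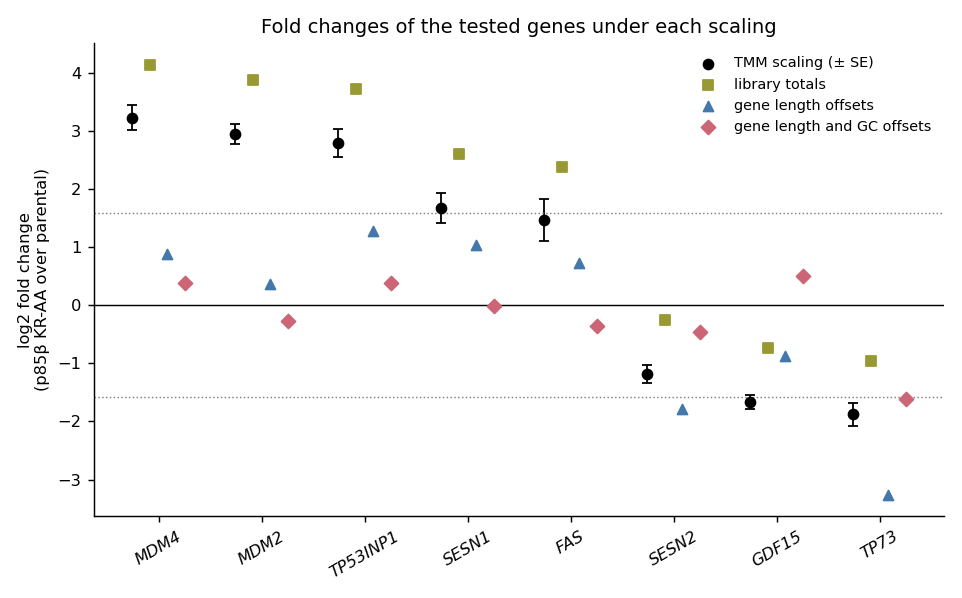
Log2 fold change of p85β KR-AA over parental cells (y axis) of the 8 tested genes under TMM scaling (black, ± standard error), library totals (squares), gene length offsets (triangles) and gene length and GC offsets (diamonds). Dotted lines mark a fold change of 3; the diamonds lie between -0.46 and 0.50 except for TP73 at -1.62.

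The other textbook targets of p53 did not share a direction. Of a list of 40, 39 could be tested, and at an adjusted p under 0.01 11 rose and 22 fell, against 41.6% and 32.7% of all tested genes (edgeR quasi-likelihood test). Past both thresholds 7 were higher and 10 lower, where 28.6% and 17.6% of all tested genes were, with a median log2 fold change of -0.61 beside 0.32 over all tested genes. With both offsets 3 were higher and 4 lower, and with library totals the balance turned to 11 higher and 3 lower. Of all 16059 tested genes 7050 were higher and 976 lower with library totals. With both offsets 2165 and 1780 of 15902 were.
CDKN1A, the cell cycle inhibitor p21 and best-known target, had 549.4, 495.8 and 485.8 CPM in the parental and 254.8, 244.9 and 280.4 CPM in the p85β KR-AA libraries. It was lower by a log2 fold change of -0.97 (adjusted p = 9.03e-06, edgeR), which was -0.05 with library totals and 0.13 with both offsets (adjusted p = 0.687 and 0.207). CDKN1A was named after its values were seen.
Among those that rose, EDA2R, a receptor of the TNF receptor family, had no count in any parental library and 9.26, 8.59 and 9.36 CPM in the p85β KR-AA libraries. Set against the floor of 3 counts per parental library, EDA2R was at least 41.6-fold higher. ZMAT3, an RNA-binding protein, rose from 1.45 ± 0.56 to 13.2 ± 2.0 CPM (mean ± SD, n = 3 each), or a log2 fold change of 3.17, and PLK2, a kinase of the Polo family, from 15.1 ± 4.58 to 88.5 ± 4.31 CPM, one of 2.55 (adjusted p = 2.84e-07 and 9.07e-08, edgeR). ZMAT3 stayed at 1.63 and PLK2 at 1.68 with both offsets.
Among those that fell, SCO2, which assembles cytochrome oxidase, was at -3.78, SERTAD1 at -3.03 and FDXR, the mitochondrial ferredoxin reductase, at -2.98 (log2 fold changes, adjusted p = 3.67e-07, 6.47e-09 and 8.83e-09, edgeR). With both offsets SERTAD1 was at -2.45, while SCO2 at -1.43 and FDXR at -1.48 were under the threshold of 3-fold. The 4 lower genes with both offsets were SERTAD1, AEN, PMAIP1 and TIGAR, the last at 0.78 under TMM. The death genes BAX and BBC3, named after their values were seen, were lower too, at -2.22 and -2.34. Both lost their calls past both thresholds with both offsets, at -0.56 and -0.34 (adjusted p = 0.000713 and 0.0196, edgeR). Not all death genes of the list went this way. TNFRSF10B was higher, at 1.27 and, with both offsets, at 0.54. PMAIP1 was lower, at -1.11, and with both offsets it was lower past both thresholds, at -1.78.

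More genes that set the level or activity of p53 rose than fell under TMM. Of 19, all tested, 12 rose and 3 fell at an adjusted p under 0.01, and past both thresholds 8 were higher and 1 lower (edgeR quasi-likelihood test), with a median log2 fold change of 0.87. Of all tested genes 41.6% rose and 32.7% fell by p alone, and 28.6% and 17.6% past both thresholds. With length offsets 3 genes were higher past both thresholds, HIPK2, TP53BP2 and RPL11, the last at 0.94 under TMM and not among the 8. With both offsets 2 were higher, HIPK2 and TP53BP2. HIPK2, a kinase that marks p53 for the death response, rose from 2.95 ± 1.27 to 90.7 ± 4.53 CPM (mean ± SD, n = 3 each), or a log2 fold change of 4.93, and stayed at 2.84 with both offsets. The damage kinases ATM and ATR had 3.80 and 3.47 (adjusted p = 5.29e-08 and 1.60e-06, edgeR), from only 15 to 27 and 4.49 to 20 parental counts, and were at 0.55 and 0.62 with both offsets. KAT5, an acetyltransferase of p53, was the gene that fell past both thresholds, from 178.7 ± 23.3 to 32.2 ± 2.77 CPM (mean ± SD, n = 3 each), or a log2 fold change of -2.47 (adjusted p = 1.19e-08, edgeR). With both offsets KAT5 was at -1.38, under the threshold of 3-fold. The gene lower past both thresholds was then RCHY1, at -1.69 (adjusted p = 4.68e-06, edgeR), which was at 0.48 under TMM.

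Around the sestrins, 9 of the 16 genes of the GATOR, RAG and TSC complexes and their partners (SESN3 among them) rose and 5 fell at an adjusted p under 0.01, and 4 were higher and 2 lower past both thresholds (edgeR quasi-likelihood test). The shares of all tested genes were 41.6% and 32.7% by p alone and 28.6% and 17.6% past both thresholds, and the median log2 fold change of the list was 0.68. Past both thresholds 8 were higher and none lower with library totals, where 7050 and 976 of all 16059 tested genes were. With both offsets 1 was higher, SESN3 itself, and none lower. MIOS, a subunit of the GATOR2 complex that sestrins bind, rose (2.32), as did TSC1 (1.91), a brake on TORC1, and both lost this with both offsets (0.07 and 0.31). NPRL2 of GATOR1 and WDR24 of GATOR2 fell, with log2 fold changes of -2.01 and -2.0 (adjusted p = 1.50e-07 and 5.47e-08, edgeR), and were at -0.91 and -0.75 with both offsets.
Around FAS, 10 of 12 partner genes could be tested, and 4 rose and 3 fell at an adjusted p under 0.01, with 1 higher and 3 lower past both thresholds and a median of 0.30 (edgeR quasi-likelihood test). All tested genes had shares of 41.6% and 32.7% by p alone and of 28.6% and 17.6% past both thresholds. With library totals 4 were higher and 1 lower, and with both offsets none was higher and 3 were lower. Over all 16059 tested genes library totals gave 7050 higher and 976 lower. FADD, the adaptor that joins FAS to caspases, fell from 187.6 ± 10.5 to 29.2 ± 0.82 CPM (mean ± SD, n = 3 each), or a log2 fold change of -2.68 (adjusted p = 4.50e-09, edgeR). FAIM, an inhibitor of FAS-driven death, fell by 2.46 and BID, which carries the signal to mitochondria, fell by 2.32 on the log2 scale. CASP10, a death receptor caspase, rose from 5.42 ± 0.079 to 29.2 ± 1.70 CPM (log2 fold change 2.43), and was at 0.80 with length offsets and 0.59 with both. With both offsets FADD was at -1.46, FAIM at -2.55 and BID at -2.53. The ligand gene FASLG was too low to be tested, at means of 0.112 and 0.162 CPM.
Genes of the integrated stress response, which is known to raise GDF15 and SESN2 without p53, were more often lower than higher under TMM. Of 12, all tested, 3 rose and 8 fell at an adjusted p under 0.01, and 2 were higher and 3 lower past both thresholds, with a median log2 fold change of -0.76 (edgeR quasi-likelihood test). By p alone 41.6% of all tested genes rose and 32.7% fell, and 28.6% and 17.6% did so past both thresholds. The balance depended on the scaling: with library totals 4 were higher (DDIT3, PSAT1, SLC7A11 and HSPA5) and 4 lower (TRIB3, CHAC1, PHGDH and ATF3) at an adjusted p under 0.01, and 2 were higher and none lower past both thresholds. Past both thresholds 7050 of all 16059 tested genes were higher and 976 lower with library totals. PHGDH, the first enzyme of serine synthesis, fell from 671.1 ± 30.8 to 120.6 ± 9.0 CPM (mean ± SD, n = 3 each), CHAC1 had -2.09 and TRIB3 -1.69 (log2 fold changes). SLC7A11, the cystine transporter, rose from 1.13 ± 0.49 to 53 ± 13.5 CPM (log2 fold change 5.56, adjusted p = 7.61e-09, edgeR), and the chaperone HSPA5 had 1.59. With both offsets PHGDH stayed at -2.31 and SLC7A11 at 2.53, while CHAC1 was at -0.33, TRIB3 at 0.07 and HSPA5 at 0.04. Past both thresholds 1 gene was then higher and 3 were lower, PHGDH, ATF3 (-1.73) and ASNS (-1.65).

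Over the 5 lists together, 96 of 99 genes could be tested, and the direction again went with GC content. Of 29 genes under 45% GC, 10 were higher and none lower past both thresholds (edgeR quasi-likelihood test), of 41 between 45% and 55% 11 were higher and 5 lower, and of 26 with at least 55% GC 1 was higher and 14 were lower. The same order held over all tested genes. Under 45% GC, 50.2% of them were higher and 2.53% lower. Between 45% and 55% the shares were 24.5% and 13.4%, and from 55% on they were 7.72% and 39.7%. The plot of the lists shows the spread within each.

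**Figure D5:**
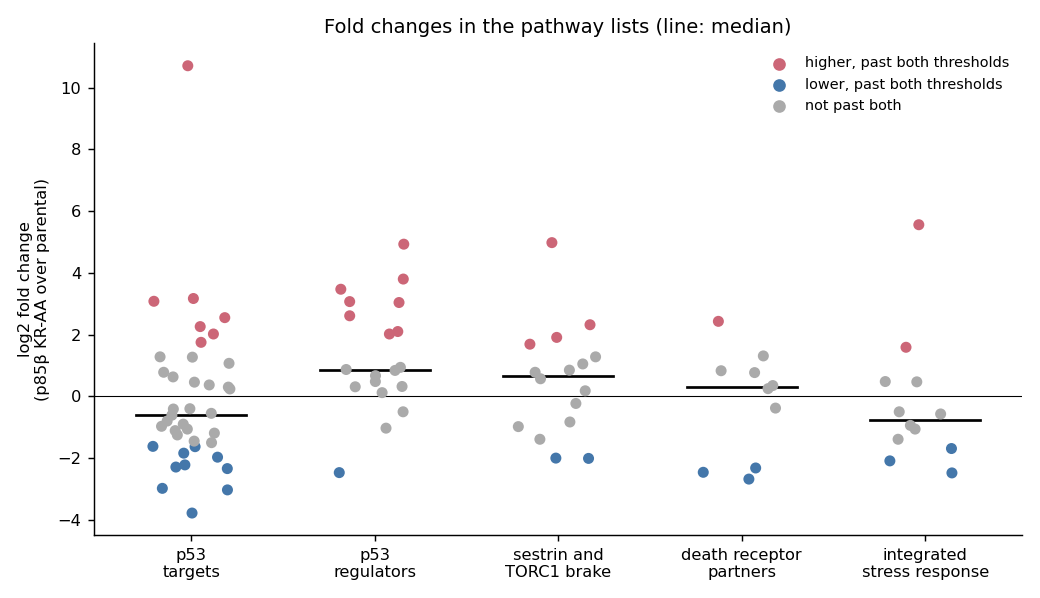
Log2 fold change of p85β KR-AA over parental cells (y axis) of each tested gene of the 5 pathway lists (x axis; horizontal position within a list is random). Red and blue points are higher or lower past both thresholds, grey points are not past both, and the black line is the list's median, from -0.76 for the integrated stress response to 0.87 for the p53 regulators; the top point is EDA2R, whose fitted value rests on no parental count.

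The gene most like each of the 8 tested ones over the 6 libraries was found among 12992 genes by the root mean square difference of centred log2 CPM. As the libraries form a pair of distant groups, likeness mostly means an equal fold change. It was EIF4G3 for MDM2 (a difference of 0.0587 on the log2 scale), OGA for MDM4 (0.0656), CBX5 for TP53INP1 (0.0541) and ARL6IP1 for SESN1 (0.0517). MRPL50 was closest to FAS (0.101), CCDC85C to TP73 (0.0511), BLOC1S3 to SESN2 (0.0343) and FTSJ3 to GDF15 (0.0258).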

How the data were processed

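RNA of the 6 libraries was read as 1 table. As deposited by the authors, it holds estimated counts for each Ensembl gene, not normalized, with a gene length as another column (unit: bases), and every column was used. The paper describes trimming with SeqPrep and Sickle. The submitters' processing notes name HISAT2 2.1.0, RSEM 1.3.1, DESeq2 1.24.0 and hg18, without roles. The annotation behind the counts is not given in the sources used here.

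Counts were rounded and scaled by TMM, filterByExpr kept genes with a minimum count of 10 and total of 15, and edgeR 4.0.16 (R 4.3.3) gave quasi-likelihood tests with Benjamini-Hochberg adjustment and no covariate. Calls used an adjusted p under 0.01, and also a fold change of at least 3, as the study's methods do. Standard errors came from the fold change and the F statistic. Symbols and gene positions came from GENCODE release 44 lifted to GRCh37, which matched 56745 of 58884 identifiers, and GC content from the longest transcript. Positions are those of this annotation, and promoter windows those of RefSeq on GRCh38.p14, and no coordinate was converted.

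The alternatives were DESeq2 1.42.0, library totals, other low-count filters, the replicate block, each library left out, other thresholds, and length and GC offsets (robust splines with 5 degrees of freedom, fitted per library). Totals were 20301396 to 26712816 counts. Replicates differed by 4.29 to 39.1 times sampling noise (chi-square per degree of freedom), so that none was a copy.

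The members and lists were chosen with earlier results of these data known. Named were the 9 genes, SESN3, overlapping genes with at least 10% of a member's counts, the nearest gene to each member, and in each list up to 3 genes per direction with the largest fold change past both thresholds and an average log2 CPM of at least 1. Other genes of the lists were named after their values were seen. With 3 libraries a condition, an exact permutation test cannot pass the threshold, and none was made. The scripts were tested on simulated counts. One gene of the regulator list is not reported here. ChIP-seq was not analysed here.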

Additional observations from a re-analysis of the deposited data

How the results depend on the processing

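Directions of the 8 tested genes held under DESeq2, library totals, other filters, length offsets and with any library left out; offsets for gene length and GC content reversed MDM2 (-0.27), SESN1 (-0.01), FAS (-0.35) and GDF15 (0.50). Past both thresholds the 4 higher genes became 0 with length offsets and 0 with length and GC offsets, and the 2 lower ones 0 with library totals, 1 with length and GC offsets, 1 with at least 10 counts in every library and 0 with the fold change tested against 3. By adjusted p alone the 5 higher genes became 3 with length offsets. With length and GC offsets 1 gene was higher, GDF15, which was lower under TMM. The 22 higher and 19 lower pathway genes became 37 and 4 with library totals and 7 and 11 with length and GC offsets, and 12 were higher with length offsets. Over all genes 4597 were higher and 2825 lower. These became 7050 and 976 with library totals (which raise the median log2 fold change by 0.92), 2887 higher with length offsets, 2165 and 1780 with length and GC offsets, 2898 higher with at least 10 counts in every library, and 2974 and 1779 with the fold change tested against 3. With each library left out, 3 to 5 of the 9 genes were higher and 2 lower past both thresholds, 5 and 3 by adjusted p alone, 20 to 22 and 18 to 19 of the pathway genes, and 4404 to 4783 and 2774 to 2992 of all genes. With the replicate block 4 genes were higher and 2 lower, and MDM2 was at 2.95, but replicate numbers did not pair the libraries (correlations of same-numbered deviations of -0.136, 0.119 and -0.045), and the block changed no call of the 9 genes. FAS, SESN1 and TP53INP1 had under 50 counts in every parental library.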
